A study of Mus musculus with 12 samples.

Results

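The genes described here encode the motors of microtubule transport, namely the kinesins, the kinesin light chains, the subunits of cytoplasmic dynein and those of dynactin. They were chosen by name, as every gene called Kif, Klc, Dync or Dctn followed by a digit, or Dynll, Dynlr or Dynlt, without names holding -ps and with a mean expected count of at least 10. The names of 66 genes matched. Of these, 3 held -ps and 2, Kif12 and Kif2b, fell under the minimum, which left 61 of the 38924 genes in each table. All 61 passed the filter on low counts, which kept 17765 genes. The rule itself uses no measured difference between groups, but it was set with earlier results of these data known.

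Polyadenylated RNA of whole spinal cord was sequenced from mice aged 8 weeks on the B6J.Cg strain background, in 12 libraries. Mice heterozygous for the C201R change in Gars (glycyl-tRNA synthetase; genotype tag C201R+/-) were set against wild-type (WT) mice (tag C201R+/+, read with the titles as WT). The labels give the genotype in a pair of ways that differ in 4 libraries. By library name, numbers 1, 2, 3, 4, 9 and 10 were C201R and numbers 5, 6, 7, 8, 11 and 12 were WT, whereas the titles call 4 and 9 WT and 11 and 12 C201R. Both comparisons, 6 against 6, were therefore made, and a further one used the 8 libraries whose labels agree (1, 2, 3 and 10 against 5, 6, 7 and 8). Below, values by library name are listed in these orders of number, and which label is right was not decided.

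Kinesins mostly carry cargo along microtubules towards their plus ends, which in axons lie away from the cell body. Cytoplasmic dynein carries cargo back, and needs dynactin and an adaptor to move far. Motor axons are among the longest cell processes in the body, and inherited changes in several of these genes cause disease of motor neurons or long axons in people.

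Library totals lay between 27175421 and 38271405 expected counts. Transcripts of Xist, made in female cells, contradicted the titled sex in 6 libraries, 3 titled male that had them and 3 titled female that lacked them. High Xist was found in 5 libraries titled C201R and 1 titled WT, but in 3 of each genotype by library name. The fits below include the titled sex as a term, and without it 0 members passed in any of the 3 comparisons as well. By library name, libraries 1 and 4 of C201R and libraries 5, 6, 11 and 12 of WT were titled female. Titled sex was thus not balanced between the genotypes by library name. CPM are counts scaled to library size, with edgeR's TMM correction for composition. Summed CPM of 13 motor neuron markers was 337 to 398 in C201R and 502 to 677 in WT libraries by library name. By title the groups overlapped, at 337 to 553 CPM in C201R and 350 to 677 CPM in WT libraries. Summed CPM of 10 pan-neuronal markers was 5515 to 5760 in C201R and 5701 to 6113 in WT libraries, with 1 of the 10 called, as lower. All 10 were lower on counts, but on deposited TPM 4 were higher and 6 lower, with 0 called. Gars itself had 143 to 155 CPM in C201R and 129.8 to 142 CPM in WT libraries by library name (edgeR adjusted p = 0.0343). It did not pass by title (edgeR adjusted p = 0.934) or in the 8 libraries whose labels agree (0.208). The part of the neuronal markers in the differences below was not tested. In whole tissue, fewer cells of a type and less RNA per cell cannot be told apart.

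The light chains of the LC8 type, Dynll1 and Dynll2, bind dynein and many other proteins as dimers, and Dynll1 had the lowest p of all members by library name. Their coding sequences have 267 bases each and share 81.3% of them, and reads had 75 bases. Of the 75-base windows of their transcripts, 0.902% for Dynll1 and 0% for Dynll2 also occurred in another gene. The first 75 coding bases are shown because they hold 15 of the 50 bases at which the pair differs, with the bases that differ in capitals (mouse GENCODE M21 transcripts, chromosome 5 for Dynll1 and chromosome 11 for Dynll2).

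Dynll1: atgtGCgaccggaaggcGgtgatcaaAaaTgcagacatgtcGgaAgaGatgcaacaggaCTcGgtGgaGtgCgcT
Dynll2: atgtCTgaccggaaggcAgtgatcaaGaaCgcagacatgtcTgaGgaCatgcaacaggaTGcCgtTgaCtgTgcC

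The T-type light chain Dynlt1 is encoded by near-identical copies on chromosome 17. The coding sequences of Dynlt1a, Dynlt1c and Dynlt1f were the same over all 339 bases, and that of Dynlt1b differed from them at 1 base, shown as a capital. From its own bases, a read inside the coding sequence could therefore not be assigned with certainty among Dynlt1a, Dynlt1c and Dynlt1f. Only a read over the differing base could set Dynlt1b apart from these.

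Dynlt1b: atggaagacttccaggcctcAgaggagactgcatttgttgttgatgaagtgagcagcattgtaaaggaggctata
Dynlt1c: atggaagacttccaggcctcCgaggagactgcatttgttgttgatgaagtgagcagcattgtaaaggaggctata

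Levels spanned a wide range. Deposited TPM (a share of transcripts, with reads divided by length) was highest for Dynll2, at 714 ± 18.7 (SD, n = 12), and then for the neuronal kinesin heavy chain Kif5a, at 614 ± 37.7. The kinesin light chain Klc1, which links kinesin heavy chains to cargo, had 571 ± 32.1, and Kif1a, which carries synaptic vesicle precursors, had 437 ± 26.6. Dynll1 had 368 ± 30.5 and Kif1b, a relative of Kif1a, 351 ± 20.05. Kif5c and Kif5b, the other heavy chains of kinesin-1, stood at 326 ± 27.8 and 324 ± 31.9 TPM. The lowest level belonged to Kif14, a kinesin of cell division, at 0.150 ± 0.058 TPM. In all, 20 members were above 100 TPM, 19 lay from 10 to 100, 12 from 1 to 10 and 10 below 1.

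Most neighbours in this order could not be separated: in 8 of 60 neighbouring pairs every library of the higher gene exceeded every library of the lower. Those pairs included Dynll2 over Kif5a, Klc1 over Kif1a and Kif1a over Dynll1, while Dynll1, Kif1b, Kif5c, Kif5b and Dynlrb1 overlapped each with the next. The members varied little between libraries, with a median coefficient of variation of CPM of 4.97%. It was under 5% in 31 members and above 15% in 14, led by the weakly expressed Kif18b (38.3%), Kif14 (36.9%) and Kif23 (29.6%).

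**Figure D1:**
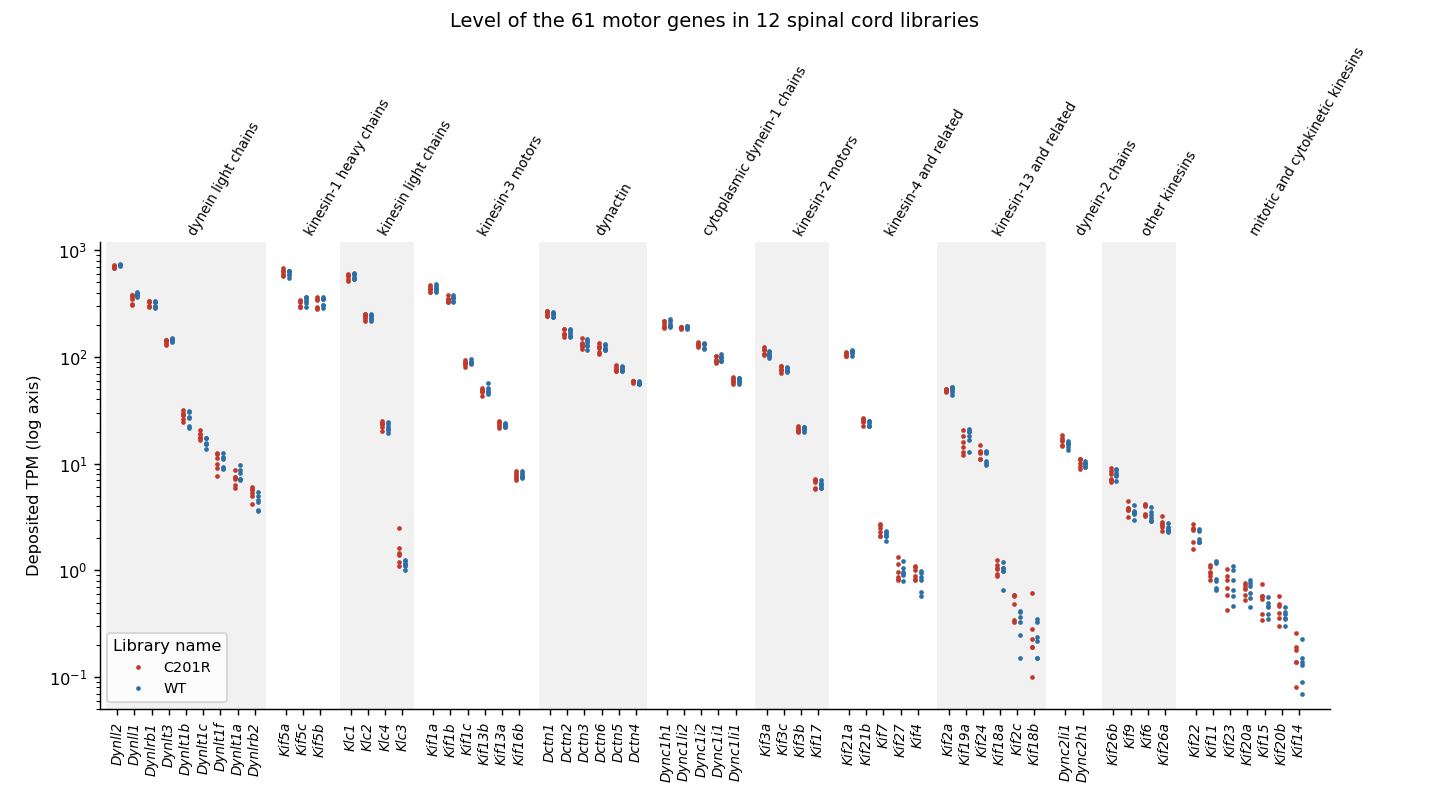
Deposited TPM on a log axis of each of the 61 motor genes, grouped by role. Each point is 1 library, with C201R on the left and WT on the right of each gene by library name; levels run from 714 TPM for Dynll2 to 0.150 TPM for Kif14, and the points of both genotypes lie close together for nearly every gene above 10 TPM.

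By library name, 0 of the 61 members passed an adjusted p of 0.05 in edgeR's quasi-likelihood test, against 0.715% of all genes tested (127 of 17765). The lowest adjusted p was 0.115. By title the count was also 0 of 61, with a background of 0% and a lowest adjusted p of 0.640. Among the 8 libraries whose labels agree it was 0 of 61, against 0.163% of all genes, with a lowest adjusted p of 0.164. At an unadjusted p under 0.05, 7, 3 and 9 members passed in these comparisons, against 12.8, 6.77 and 13% of all genes. DESeq2 called 4, 0 and 2 members, against 1.89, 0.101 and 1.44% of all genes.

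The median log2 difference of the members, C201R over WT, was 0.0069 by library name and -0.0032 by title, beside 0.0023 and 0.0012 over all genes. By library name 32 members were higher and 29 lower, but on deposited TPM 40 were higher and 21 lower, where all genes also split into 11619 higher and 6146 lower. By title 29 members were higher and 32 lower, and 39 and 22 on TPM. The differences ran from -0.17 for Dynll1 to 0.39 for Kif2c by library name, and from -0.12 for Kif20a to 0.55 for Kif14 by title. For 34 members the 95% interval of the difference by library name lay inside 0.2 on the log2 scale in either direction (1.15-fold), and so did that of 35 members by title. These included, by library name, 32 of the 39 members at 10 TPM or more. Of the 27 members with wider or shifted intervals, 20 were below 10 TPM.

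**Figure D2:**
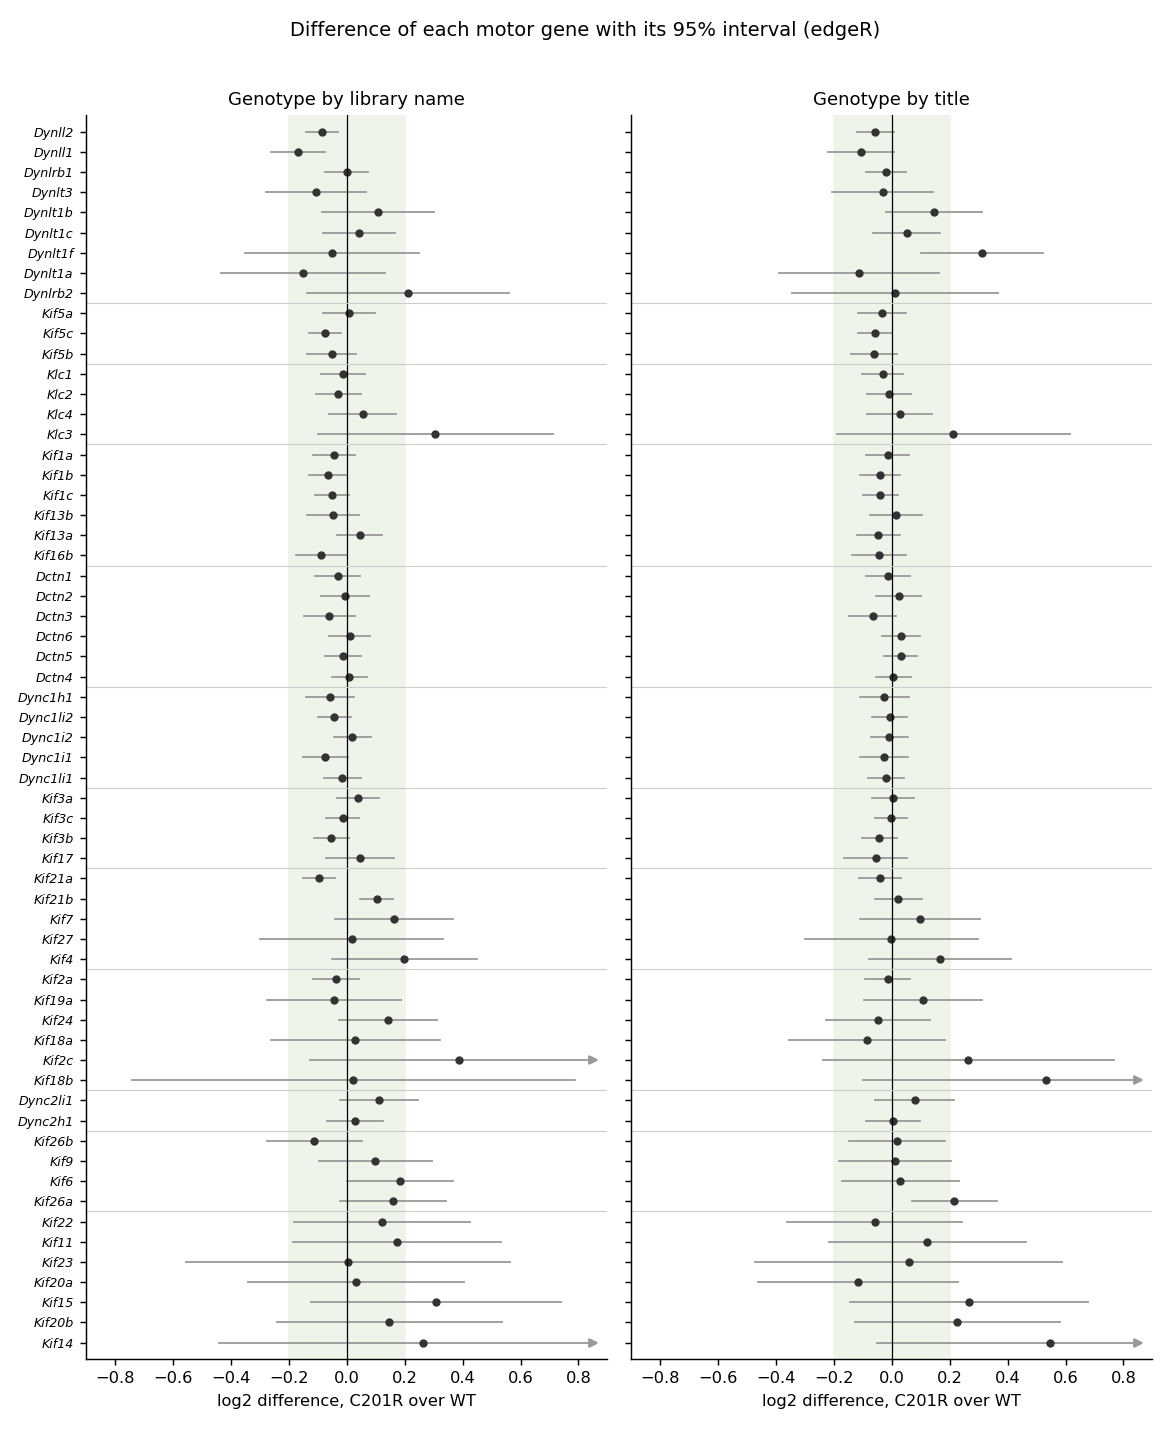
Fitted log2 difference, C201R over WT, of the 61 motor genes with its 95% interval (edgeR), by library name on the left and by title on the right. Rows follow the roles and their order by level, the shaded band marks 0.2 in either direction and arrows mark intervals that run off the axis; Dynll1, at -0.17, is the lowest by library name, and the widest intervals belong to weakly expressed kinesins such as Kif18b and Kif14.

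The libraries also fell into sets that the genotype labels do not follow. The deposited length of a gene, which RSEM averages over its transcripts by their estimated share, fell into separate ranges for some members. For Kif5b, the widely expressed kinesin-1 heavy chain, it was 4027 to 4127 bases in libraries 4, 6, 9, 10, 11 and 12, and 4699 to 5128 bases in libraries 1, 2, 3, 5, 7 and 8. For the light chain Dynlt3 it was 1757 to 1938 bases in the first of these sets and 2065 to 2144 bases in the other, and for Kif1b 8890.0 to 9119 and 9193 to 9366 bases in the same order. These were 3 of the 61 members, all shorter in the first set, against 2.54% of all genes (2.34% shorter); since they led to the sets, nothing is read from this count. The same libraries were split by mt-Atp8, a mitochondrial transcript that is no member, with 16698 to 24359 TPM in the first 6 and 41138 to 53782 TPM in the other 6. The 6 libraries low in mt-Atp8 and the 6 high in it each held 3 C201R and 3 WT libraries, both by library name and by title. However, the libraries whose labels differ (4, 9, 11 and 12) were all low in mt-Atp8. The comparisons by library name and by title therefore differ only within that set. Among the libraries whose labels agree, only library 10 of C201R and library 6 of WT were low in mt-Atp8. The labels name a pair of library preparation kits without saying which library was made with which, so what sets these libraries apart was not tested.

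Some members did not overlap between these sets of libraries, more of them in TPM than in CPM. In TPM, 12 of the 61 members did not overlap between the sets, against 5.4% of all genes tested, each of the 12 higher in the 6 libraries low in mt-Atp8 (background 4.25%). Since lengths and mt-Atp8 TPM led to the sets, nothing is read from this count. Of the 12, only Kif5b also had lengths that did not overlap between the sets. Kif5a, Kif3b, Kif3c and Dync1li1 each had the same length in every library. What set their TPM apart was not tested. Kif5b had 342 to 366 TPM in the libraries low in mt-Atp8 and 282 to 307 TPM in the 6 others. Kif5a had 633 to 678 TPM in the libraries low in mt-Atp8 and 548 to 605 TPM in the others. In CPM both overlapped between the sets, with 688 to 750.2 CPM in the libraries low in mt-Atp8 and 697 to 791 CPM in the others for Kif5b, whose median was thus lower in the first (711 and 761 CPM), and 1979 to 2169 and 1834 to 1982 CPM for Kif5a in the same order. In CPM, 5 members did not overlap, 2 higher and 3 lower in the libraries low in mt-Atp8, against 5.08% of all genes (1.2% higher and 3.88% lower). Dynlt3 was at 119 to 133 CPM in the libraries low in mt-Atp8 and at 144 to 159 CPM in the others, while its TPM overlapped between them. Dynlrb1, a light chain of the roadblock type, was at 90.7 to 95.6 CPM in the libraries low in mt-Atp8 and at 85.1 to 87.3 CPM in the others.

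**Figure D3:**
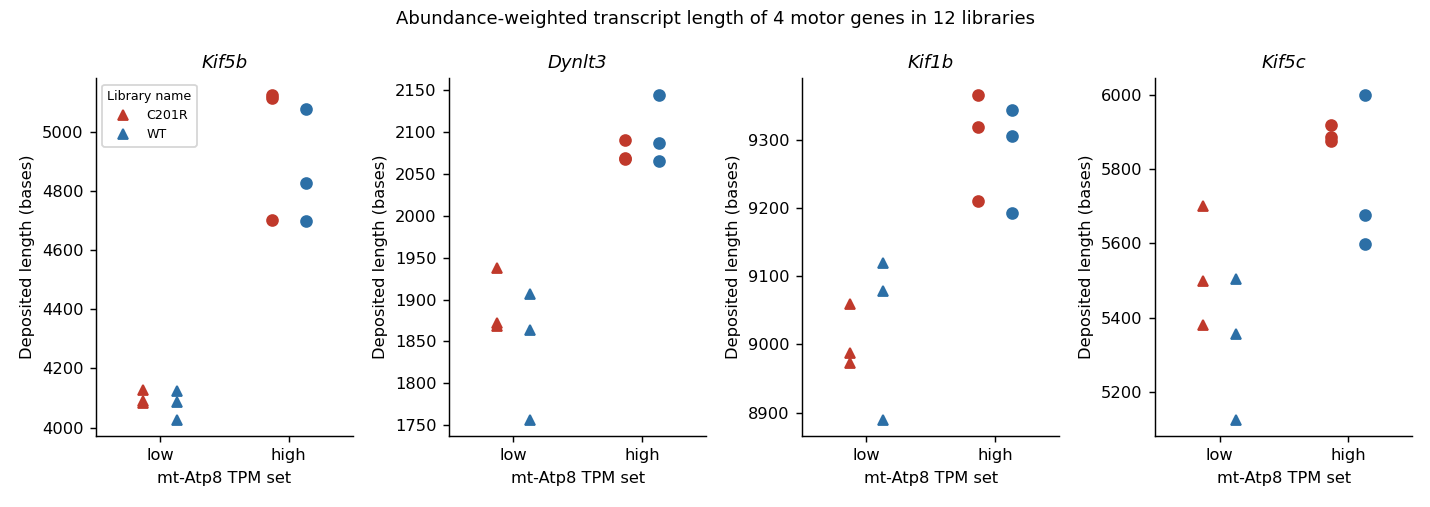
Deposited length in bases of Kif5b, Dynlt3, Kif1b and Kif5c in each library, with the 6 libraries low in mt-Atp8 TPM (triangles) left of the 6 high in it (circles), and C201R left of WT by library name within each. Kif5b lies at 4027 to 4127 bases in the low set and at 4699 to 5128 bases in the high set in both genotypes, whereas the sets overlap for Kif5c.

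With the set of libraries as a term, an alternative added after the data were seen, 2 members passed by library name, Dynll1 and Kif21a, both lower in C201R, against 2.1% of all genes (373 of 17765; 1.5% lower). By title 0 members passed, against 0%, and among the 8 libraries whose labels agree 0 passed, against 0.715%. Leaving out library 1 or library 8 ended both calls, and over all 12 omissions the count was between 0 and 3. The log2 difference of Dynll1 was -0.19 without library 1 and -0.17 without library 8, and that of Kif21a was -0.09 without either. Over the 12 omissions they lay from -0.19 to -0.17 and from -0.11 to -0.09. Dynll1 was called in 10 of the 12 and Kif21a in 3, in those without library 2, 9 or 11.

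Dynll1 had 93.2, 90.6, 88.2, 100.9, 103.4 and 103.2 CPM in the C201R libraries, against 111.5, 111.0, 105.6, 107.7, 110.4 and 109.8 CPM in the WT libraries by library name. Every C201R library was below every WT library in CPM. On deposited TPM the groups overlapped, at 309 to 380 TPM in C201R and 369 to 402 TPM in WT libraries. The log2 difference was -0.17 ± 0.04 (SE; edgeR adjusted p = 0.115), and -0.18 ± 0.03 with the set of libraries as a term (adjusted p = 0.0125). Within the libraries high in mt-Atp8 the means were 90.7 CPM in C201R and 108 CPM in WT (3 each), and within those low in it 103 CPM in C201R and 110.4 CPM in WT. The groups did not overlap in either set, where an exact test of 3 against 3 cannot go below p = 0.1. By title the groups overlapped, with means ± SD of 99.3 ± 9.85 CPM for libraries titled C201R and 106.7 ± 4.19 CPM for those titled WT (n = 6 each), and the log2 difference was -0.11 ± 0.05 (edgeR adjusted p = 0.766). Within the libraries low in mt-Atp8, the means by title were 108 CPM in C201R and 105 CPM in WT.

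Dynll2 had 850.0, 852, 849, 851, 848 and 854 CPM in C201R libraries, against 939, 872, 910.4, 929, 857 and 877 CPM in WT libraries by library name. In CPM the C201R values lay close together, and all were below the lowest WT value. On deposited TPM the groups overlapped, at 678 to 726 TPM in C201R and 706 to 739 TPM in WT libraries. The fitted log2 difference of Dynll2 was -0.09 ± 0.03 (edgeR adjusted p = 0.173), and -0.08 with the set of libraries as a term (adjusted p = 0.0788). By title it was -0.06 ± 0.03 (edgeR adjusted p = 0.766), and the groups overlapped. The difference was uneven: the means were 850.4 CPM in C201R and 926 CPM in WT in the libraries high in mt-Atp8, and 851 CPM in C201R and 869 CPM in WT in those low in it. Of the TPM of both LC8 genes, Dynll2 made up 66.9 ± 1.55% in C201R and 65.3 ± 0.9752% in WT libraries by library name. By title the share was 66.5 ± 1.99% in C201R and 65.7 ± 0.738% in WT.

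Kif21a, a kinesin of the kinesin-4 group that restrains microtubule growth, had 325, 346, 331, 346, 343 and 340.0 CPM in C201R libraries, against 348, 363, 362, 363, 353 and 370.4 CPM in WT libraries by library name. The groups did not overlap in CPM. On deposited TPM they did, at 102 to 110 TPM in C201R and 103 to 116 TPM in WT libraries. The log2 difference was -0.10 ± 0.03 (edgeR adjusted p = 0.13), and -0.10 ± 0.02 with the set of libraries as a term (adjusted p = 0.0353). By title it was -0.04 ± 0.03 (adjusted p = 0.871), and the groups overlapped.

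Its close relative Kif21b, also an inhibitor of microtubule growth, had 109, 103, 112, 111, 112 and 105 CPM in C201R libraries, against 104, 103, 99.1, 99.2, 104 and 105 CPM in WT libraries by library name. The highest values were in C201R, but the groups overlapped. Its fitted log2 difference was 0.10 ± 0.03 (edgeR adjusted p = 0.117; 0.0682 with the set of libraries as a term). By title it was 0.02 ± 0.04 (edgeR adjusted p = 0.951). In opposite directions, the differences by library name gave Kif21a 80.8 ± 1.11% of the TPM of the pair in C201R and 82.4 ± 0.813% in WT libraries. By title this share was 81.2 ± 1.41% in C201R and 82.0 ± 1.05% in WT.

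**Figure D4:**
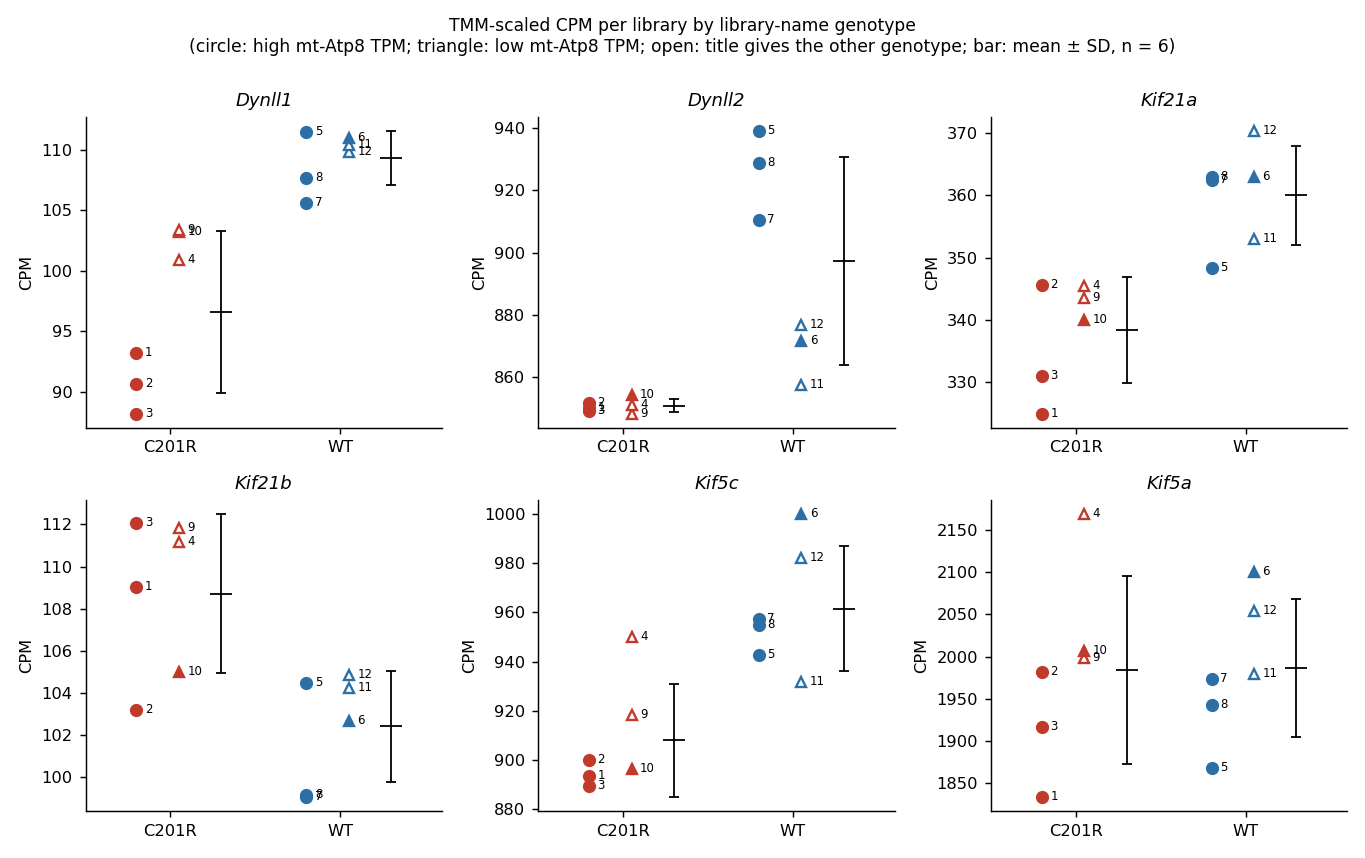
CPM of 6 motor genes in each library by library-name genotype, C201R left and WT right, on axes that do not start at 0. Circles are libraries high in mt-Atp8 TPM and triangles those low in it, open symbols are libraries whose title gives the other genotype, numbers are library numbers, and bars show the mean and SD of 6 libraries; C201R and WT do not overlap for Dynll1, Dynll2 and Kif21a, and overlap for Kif21b, Kif5c and Kif5a.

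Members whose libraries did not overlap in CPM by library name were thus 3 of 61, all lower in C201R, against 1.64% of all genes (1.05% lower). On deposited TPM the groups of these 3 members overlapped. Within both sets of libraries in the same direction they were 4 of 61, Dynll1, Dynll2, Kif21a and the dynein intermediate chain Dync1i1, all lower in C201R, against 3.57% of all genes (2.24% lower). By title there were 0 of 61, against 0.349%. Among the 8 libraries whose labels agree 6 of 61 did not overlap, against 8.53% of all genes: Dynll1, Dynll2, Kif21a, Kif5c and Kif3b lower (background 4.71%) and Kif26a higher (3.82%).

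The kinesin-1 heavy chains carry mitochondria, vesicles and other cargo down the axon. Kif5c had 894, 900.2, 889, 950.0, 918 and 896 CPM in C201R libraries, against 943, 1000.0, 957, 955, 932 and 982 CPM in WT libraries by library name. Library 4 of C201R overlapped with WT. Its log2 difference was -0.08 ± 0.03 by library name (edgeR adjusted p = 0.234), -0.06 by title (0.733) and -0.10 in the 8 libraries whose labels agree (0.183).

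Kif5a, whose changes in people cause spastic paraplegia, a form of Charcot-Marie-Tooth disease and amyotrophic lateral sclerosis, had 1834, 1982, 1916, 2169, 1998 and 2007 CPM in C201R libraries, against 1868, 2101, 1973, 1942, 1979 and 2054 CPM in WT libraries. The ranges covered each other. The log2 difference was 0.0069 ± 0.04 by library name (edgeR adjusted p = 0.969), with a 95% interval from -0.08 to 0.10. It was -0.0014 without the term for sex and -0.0069 with the set of libraries as a term. By title the difference was -0.03 ± 0.04 (edgeR adjusted p = 0.916). Of the TPM of all 3 heavy chains by library name, Kif5a made up 49.4 ± 1.07% in C201R and 47.8 ± 0.736% in WT libraries. Kif5c made up 25.1 ± 0.691% in C201R and 26.5 ± 0.564% in WT. By title the share of Kif5a was 48.9 ± 1.61% in C201R and 48.3 ± 0.693% in WT. That of Kif5c was 25.8 ± 1.01% in C201R and 25.8 ± 0.94% in WT.

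Among the kinesin light chains, Klc1 had 589, 561, 572, 613, 623 and 606 CPM in C201R libraries, against 591, 648, 597, 572, 607 and 630.3 CPM in WT libraries by library name. Its log2 difference was -0.01 ± 0.04 (edgeR adjusted p = 0.917), with overlapping groups, and -0.03 ± 0.03 by title (0.91). Of the TPM of Klc1 to Klc4, Klc1 held 68.3% in C201R and 68.9% in WT libraries and Klc2 28.7% in C201R and 28.4% in WT. The 4 light chain genes split into 2 higher and 2 lower on counts, and 4 higher and 0 lower on TPM, with 0 called.

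Of the 6 kinesin-3 motors, 1 was higher and 5 were lower in C201R by library name, with 0 called. Kif1a, changed in people with hereditary sensory neuropathy and spastic paraplegia, had 1567, 1597, 1671, 1681, 1757 and 1689 CPM in C201R libraries, against 1675, 1726, 1705, 1629.85, 1781 and 1768 CPM in WT libraries. Its fitted log2 difference was -0.04 ± 0.03 by library name (edgeR adjusted p = 0.656) and -0.01 ± 0.03 by title (0.971). Kif1b had 1579, 1606, 1679.6, 1599, 1731 and 1554 CPM in C201R libraries, against 1709, 1709, 1718, 1636, 1706 and 1694 CPM in WT libraries. Its log2 difference was -0.07 ± 0.03 by library name (edgeR adjusted p = 0.379), with library 9 of C201R above every WT library. By title it was -0.04 ± 0.03 (edgeR adjusted p = 0.862).

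The heavy chain of cytoplasmic dynein, Dync1h1, changed in people with spinal muscular atrophy of the legs, had 1163, 1157, 1255, 1211, 1328 and 1219 CPM in C201R libraries, against 1230.2, 1311, 1258, 1213, 1312 and 1309.7 CPM in WT libraries. The groups overlapped, and the log2 difference was -0.06 ± 0.04 by library name (edgeR adjusted p = 0.585) and -0.03 ± 0.04 by title (0.94). Of its 5 genes for heavy, intermediate and light intermediate chains, 1 was higher and 4 were lower (2 and 3 on TPM), with 0 called. The intermediate chain Dync1i1, found mainly in neurons, had 122 ± 5.56 CPM in C201R and 129 ± 3.94 CPM in WT libraries. Its log2 difference was -0.07 ± 0.04 (adjusted p = 0.405; 0.0817 with the set of libraries as a term).

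Dynactin is the cofactor that lets dynein run far and bind cargo. Dctn1, its largest subunit and changed in people with distal motor neuropathy, had 418, 414, 429, 435, 466 and 453 CPM in C201R libraries, against 429, 451, 434, 439, 457 and 461 CPM in WT libraries. The groups overlapped, with a log2 difference of -0.03 ± 0.04 (edgeR adjusted p = 0.775) that was 0.04 on deposited TPM. By title it was -0.01 ± 0.03 (edgeR adjusted p = 0.978). Of the 6 dynactin genes, 2 were higher and 4 lower on counts, and 5 higher and 1 lower on TPM, with 0 called on either.

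The Dynlt1 copies were also summed, since reads may be split between them. Of the 75-base windows of Dynlt1c, Dynlt1f, Dynlt1b and Dynlt1a, 84.8, 83.3, 82.6 and 62.4% also occurred in another gene. Dynlt1f had 3.97, 4.50, 3.48, 4.09, 4.201 and 3.95 CPM in the libraries titled C201R (1, 2, 3, 10, 11 and 12), against 2.64, 3.36, 3.11, 3.91, 3.42 and 3.10 CPM in those titled WT (4 to 9). The log2 difference by title was 0.31 ± 0.10 (edgeR adjusted p = 0.640), and by library name -0.05 ± 0.14 (0.926). Summed over the copies and Dynlt1-ps1, the gene had 36.0 ± 1.53 CPM in libraries titled C201R and 33.8 ± 1.45 CPM in those titled WT (SD, n = 6 each). That was a log2 difference of 0.09 ± 0.04 (adjusted p = 0.702), and by library name it was 0.03 ± 0.05 (0.846).

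**Figure D5:**
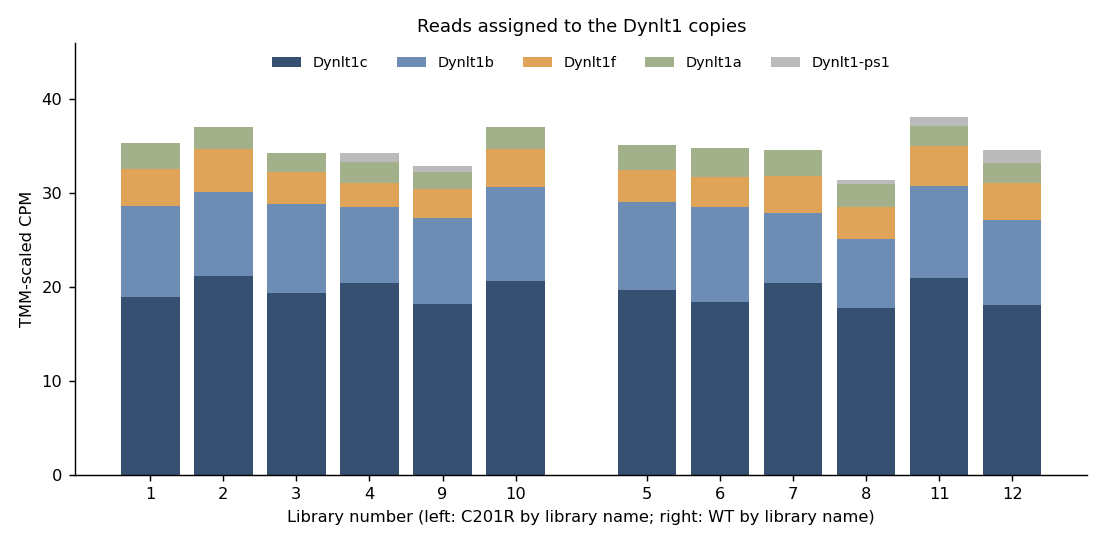
Stacked CPM assigned to the Dynlt1 copies in each library, C201R on the left and WT on the right by library name. The total runs from 31.4 CPM in library 8 to 38.1 CPM in library 11; Dynlt1c takes 56.3% of it in C201R and 55.3% in WT libraries on average, while Dynlt1f takes 10.3% in C201R and 10.53% in WT.

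The remaining kinesins of transport and microtubule dynamics gave 0 calls. Kinesin-2, which serves cilia and vesicle transport, had 2 genes higher and 2 lower (3 and 1 on TPM), from -0.05 ± 0.03 for Kif3b to 0.05 ± 0.05 for Kif17 on the log2 scale, and summed to 217 ± 13.3 TPM in C201R and 210.5 ± 10.1 TPM in WT libraries. The kinesin-13 group and related depolymerizing motors, which shorten microtubules, had 4 genes higher and 2 lower, from -0.04 ± 0.11 for Kif19a to 0.39 ± 0.24 for Kif2c.

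Kinesins of cell division were weakly expressed in this adult tissue. All 7 mitotic and cytokinetic kinesins were higher in C201R by library name, with 0 called and a median log2 difference of 0.15, but 5 were higher and 2 lower without the term for sex, and also by title. Their summed TPM was 5.13 to 6.70 in C201R and 4.58 to 6.54 in WT libraries. Of the markers of dividing cells, 9 of 11 were higher by library name, with 0 called and no marker at 0. Their summed CPM overlapped, at 16.5 to 35.8 in C201R and 15.8 to 30.1 in WT libraries. By title these sums overlapped as well, at 16.5 to 35.8 in C201R and 15.8 to 25.3 in WT libraries. Their part in the result was not tested. Kif14 had 1.16, 0.839, 0.630, 0.345, 0.599 and 0.812 CPM in C201R libraries, against 0.431, 0.665, 0.635, 0.602, 0.990 and 0.337 CPM in WT libraries. The values crossed, and the log2 difference was 0.26 ± 0.32 by library name (edgeR adjusted p = 0.803) and 0.55 ± 0.28 by title (0.766).

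Kif26a, a kinesin that lacks the usual ATPase activity, had 11.5, 10.3, 9.72, 9.07, 9.48 and 8.95 CPM in libraries titled C201R, against 8.31, 8.69, 7.87, 8.16, 9.02 and 8.77 CPM in those titled WT. Libraries 12 of C201R and 8 of WT made the groups overlap. The log2 difference was 0.22 ± 0.07 by title (edgeR adjusted p = 0.640) and 0.16 ± 0.08 by library name (0.465).

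Several further members serve cilia. Dynein-2, which carries cargo back along cilia, had both of its genes higher in C201R by library name, Dync2h1 by 0.03 and Dync2li1 by 0.11 on the log2 scale, with 0 called. Kif6 and Kif9, kinesins of motile cilia, differed by 0.18 ± 0.08 and 0.10 ± 0.09 (edgeR adjusted p = 0.390 and 0.716). By title Kif6 and Kif9 differed by 0.03 ± 0.09 and 0.01 ± 0.09. Other members did not all go this way by library name. Of kinesin-2, which serves cilia too, Kif3a and Kif17 differed by 0.04 and 0.05, and Kif3b and Kif3c by -0.05 and -0.01. Kif19a, placed above with the depolymerizing motors, differed by -0.04 ± 0.11. Axonemal dynein genes, which drive the beat of motile cilia, were higher in 16 of 17, and in 14 of 17 on log2(TPM + 0.1), with 0 called. The lowest p values of that list belonged to Dnah7b (0.20 ± 0.05, adjusted p = 0.108), Dnah6 (0.36 ± 0.17, 0.409) and Dnah12 (0.39 ± 0.21, 0.466). By title 10 were higher and 7 lower, with 0 called. Dnah7b, Dnah6 and Dnah12 then differed by 0.04 ± 0.07, 0.01 ± 0.19 and 0.08 ± 0.22. Markers of ependymal cells, which bear such cilia in the central canal, were higher in 12 of 12 measured, with 0 called, and summed to 172 to 191 CPM in C201R and 155 to 176 CPM in WT libraries, with no marker at 0. By title 8 were higher and 4 lower, with sums of 158 to 191 CPM in C201R and 155 to 177 CPM in WT. Their part in the result was not tested.

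Adaptors, activators and other transport genes, a list of 50 with 49 tested, held 0 called by library name, with 14 higher and 35 lower. On deposited TPM the split was 32 higher and 17 lower. Bicd2, an adaptor that joins dynein and dynactin to cargo, had 124, 128, 128, 131, 146 and 136 CPM in C201R libraries, against 142, 145, 141, 156, 141 and 149.9 CPM in WT libraries. Library 9 of C201R overlapped with WT. Its fitted log2 difference was -0.16 ± 0.04 (edgeR adjusted p = 0.1), and -0.18 ± 0.03 with the set of libraries as a term (0.0175). Trak2, which joins mitochondria to kinesin and dynein, had 321, 317, 317, 338, 328 and 311 CPM in C201R libraries, against 351, 362, 357, 342, 349 and 339.5 CPM in WT libraries, with no overlap. It differed by -0.11 ± 0.03 (adjusted p = 0.0969; 0.0469 with the set of libraries as a term). With that term 2 of the 49 passed, both lower, against 2.1% of all genes. By title Bicd2 differed by -0.09 ± 0.05 and Trak2 by -0.09 ± 0.03 (edgeR adjusted p = 0.791 and 0.662; 0.649 and 0.521 with the set of libraries as a term). Where the labels agree, neither passed with that term (0.0635 and 0.0542). Hook2, a further dynein adaptor, differed by 0.15 ± 0.05 (adjusted p = 0.227).

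The order of the libraries was tested too, after the data were seen. Beside library-name genotype and titled sex, the slope of the library number passed for 5 of 61 members, against 6.38% of all genes (edgeR, adjusted over all genes). Per library number, the log2 CPM changed by 0.0155 for Dctn1 (adjusted p = 0.0239), 0.0162 for Dctn2 (0.0327), 0.0148 for Klc2 (0.0343), 0.0131 for Kif3a (0.0494) and -0.0367 for Dynlt3 (0.0239). Of the 6 libraries low in mt-Atp8, 4 carry the numbers 9 to 12, so the number and the set of libraries overlap.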

How the data were processed

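RNA was measured by polyA-selected, stranded, paired RNA-seq with reads of 75 bases. The authors aligned reads with Bowtie2 2.2.0 and quantified genes with RSEM 1.2.12, per the submitters' processing notes; the sources used here name neither build nor annotation. The deposited tables hold expected counts, TPM and a length per gene, per the file headers. Expected counts were rounded. Genes kept by filterByExpr were tested with edgeR 4.0.16 (quasi-likelihood, TMM, titled sex as a term although Xist contradicts it in 6 libraries, Benjamini-Hochberg over all 17765 genes, threshold 0.05; R 4.3.3) on the libraries of each comparison. Alternatives were DESeq2 1.42.0, limma 3.58.1 on log2(TPM + 1) or log2(TPM + 0.1), voom with quality weights, RLE factors, other filters, no sex term, library number as a term, omission of single libraries and omission of the 4 libraries highest in muscle transcripts. Summing the Dynlt1 copies, the slope of library number and a term for the sets of libraries split at the widest gap in mt-Atp8 TPM were added after the data were seen. The fits were also run on simulated counts, which held no sets of libraries and no wrong labels. That run therefore does not bear on either.

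Members and lists were chosen with earlier results of these data known. Values in every library are given for the 5 members of lowest p by library name and by title, Kif5a, Kif1a, Kif1b, Dync1h1, Dctn1 and the 3 of highest TPM. From the other lists, genes past the threshold or the 3 of lowest p are named. Whether every library stands for its own animal is not stated in the labels. The p-values therefore reflect library-to-library spread only, which may be technical. No pair of libraries agreed within sampling noise (chi-square per degree of freedom at least 6.5 over 66 pairs). Shared windows and sequences came from GENCODE M21 transcripts, whose build may differ from the authors'.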

Additional observations from a re-analysis of the deposited data

Results flagged for a closer look

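In 5 of 90 groups of libraries, 1 library lay far from the others in CPM by Dixon's test; chance gives about 1 in 20. Dynll2 had 877 CPM in library 12, titled C201R, against 849 to 857 CPM in the other libraries titled C201R. Kif1b had 1636 CPM in library 8, against 1694 to 1718 CPM in the other WT libraries by library name and 1709 to 1718 CPM in the other WT libraries whose labels agree. Kif21a had 348 CPM in library 5, against 362 to 363 CPM in the other WT libraries whose labels agree. The summed Dynlt1 copies had 31.4 CPM in library 8, against 34.6 to 35.1 CPM in the other WT libraries whose labels agree.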

How the results depend on the processing

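No paired analysis was possible because the titles number the libraries 1 to 12 once each, so the groups share no replicate number. The number of members called was 0 by title under every alternative. By library name it was 4 with DESeq2 (Dynll1, Dynll2 and Kif21a lower, Kif21b higher), 2 with the set of libraries as a term and 0 to 1 when single libraries were left out, with Dynll1 called without library 9 (edgeR adjusted p = 0.049). In the 8 libraries whose labels agree it was 2 with DESeq2, 1 with voom and 0 to 1 when single libraries were left out, with Dynll1 called without library 10 (edgeR adjusted p = 0.0157).

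Over all genes by library name, 335 were called with DESeq2, 41 and 42 on log2(TPM + 1) and log2(TPM + 0.1), 235 with library number as a term, 12 without the 4 libraries highest in muscle transcripts, 373 with the set of libraries as a term and 54 to 221 without single libraries. By title 18 were called with DESeq2, 8 with library number as a term and 0 to 0 without single libraries. Where the labels agree, 255 were called with DESeq2, 91 without a filter, 12 on either TPM scale, 267 with voom, 70 without a sex term, 127 with the set of libraries as a term and 5 to 119 without single libraries.

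Log2 differences of some named members changed sign under some settings, and the cause was not tested. Most were near 0, but that of Kif14 was 0.2617 by library name. By library name, on log2(TPM + 1) and log2(TPM + 0.1), Dctn1 was 0.0400 and 0.0401 and Klc1 0.0034 on both. With library number as a term, Dctn1 was 0.0260, Kif1a 0.0042 and Klc1 0.0250. Kif5a was -0.0014 without a sex term and -0.0069 with the set of libraries as a term. Without the libraries highest in muscle, Kif14 was -0.2151 and Klc1 0.0034. Dynlt1 was 0.0319 with copies summed. Without single libraries, Dynlt1f ran from -0.1405 to 0.0760, Kif14 from -0.1239 to 0.5162, Kif5a from -0.0361 (also -0.0066) to 0.0523 and Klc1 from -0.0304 to 0.0035. By title, on the TPM scales Dctn1 was 0.0139 and 0.0140 and Kif1a 0.0147 and 0.0148. Without the libraries highest in muscle, Dctn1 was 0.0150, Kif1a 0.0029, Kif21a 0.0091, Kif21b -0.0320 and Kif5a 0.0024. Without single libraries, Dctn1 ran from -0.0285 to 0.0053 (also 0.0026 and 0.0042) and Kif1a from -0.0315 to 0.0084. Where the labels agree, on the TPM scales Dctn1 was 0.0316 and 0.0317 and Kif5a 0.0080 on both, and without single libraries Kif5a ran from -0.0523 to 0.0071.

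The depth was not varied. Of the 27 members whose interval reached beyond 0.2 on the log2 scale by library name, 20 were under 10 TPM; those at 10 TPM or more include Dynll1 and Dynlt3.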
